A study of Mus musculus with 2 samples.

Results

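The protocadherins, the largest family of cadherin adhesion proteins, were described in total RNA of the mouse limb at embryonic day 11.5. Members were all protein-coding genes whose GENCODE symbol begins Pcdha, Pcdhb or Pcdhg (clustered) or Pcdh followed by a number (non-clustered). They were 69 of the 43346 genes in the tables, with 14 alpha, 22 beta and 21 gamma genes in the clusters and 12 non-clustered genes. The data were 2 libraries of 1 group, replicate 1 from a pool of 109 embryos and replicate 2 from a pool of 88, both of strain B6NCrl and of mixed sex. The labels name no treatment, mutation or contrast, so each gene is described by its level in the 2 pools and by their agreement.

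Clustered protocadherins are best known in neurons, where each cell uses a small combination of isoforms as a label in contacts between cells. Each alpha and gamma gene has a large variable exon with its own promoter, which is spliced to constant exons that all genes of that cluster share, while beta genes use a variable exon alone. Non-clustered protocadherins stand apart in the genome, include the delta1 and delta2 classes, and act in cell adhesion, sorting and migration in many embryonic tissues.

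The promoters of 3 non-clustered genes are shown because these genes mark the top 2 and the lower end of the non-clustered levels given below. Each line gives the 250 bases before the RefSeq start (GRCm38.p6, 5′ to 3′ on the strand of the gene). Capitals mark motifs found on either strand. The first searched was the GC box, spelled GGGCGG, a site of the Sp1 family of transcription factors. The next was the CCAAT box, named by its own letters and known as a site of the factor NF-Y. The last was the TATA box of core promoters, spelled TATAAA.
Pcdh18, chr3:49757317-49757566, minus strand: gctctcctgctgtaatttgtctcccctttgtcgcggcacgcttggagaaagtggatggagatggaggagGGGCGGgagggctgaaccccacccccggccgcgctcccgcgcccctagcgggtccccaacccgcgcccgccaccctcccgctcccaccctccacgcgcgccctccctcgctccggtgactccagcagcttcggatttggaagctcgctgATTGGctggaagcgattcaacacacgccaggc
Pcdh9, chr14:93890680-93890929, minus strand: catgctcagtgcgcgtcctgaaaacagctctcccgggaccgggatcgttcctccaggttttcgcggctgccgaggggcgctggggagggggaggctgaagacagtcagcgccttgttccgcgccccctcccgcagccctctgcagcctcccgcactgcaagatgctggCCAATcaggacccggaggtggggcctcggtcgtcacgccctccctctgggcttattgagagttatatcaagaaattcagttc
Pcdh20, chr14:88471397-88471646, minus strand: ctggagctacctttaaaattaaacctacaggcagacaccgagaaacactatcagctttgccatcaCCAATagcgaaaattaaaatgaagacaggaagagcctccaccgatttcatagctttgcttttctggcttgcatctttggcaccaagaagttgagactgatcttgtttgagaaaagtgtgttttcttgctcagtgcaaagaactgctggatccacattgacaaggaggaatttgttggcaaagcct

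Pcdh18 held 1 GC box and 1 CCAAT box, whereas Pcdh9 and Pcdh20 each held 1 CCAAT box and no GC box, and none of the 3 held a TATA box. Of all 32851 RefSeq windows of this length, 32.7% held a GC box, 33.8% a CCAAT box and 12.4% a TATA box. The Pcdh18 window had 23 CpG dinucleotides and the Pcdh9 window 18, against 3 in Pcdh20 and a median of 6 over all windows. In the other matched windows, CpG numbered 22 for Pcdh10, 21 for Pcdh17 and 16 for Pcdh19, each with 1 GC box. They numbered 11 for Pcdh8, 7 for Pcdh7 and 6 for Pcdh15, the lowest non-clustered gene by mean TPM. Pcdh8 and Pcdh15 each held 1 TATA box, and Pcdh7 held none of the 3 motifs. Whether these features follow level was not tested. These matches describe letters in a window and say nothing of binding.

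Non-clustered genes made up 52.8% of the summed member TPM and gamma genes 42.4%, while beta genes gave 4.28% and alpha genes 0.480%. TPM is a level per length, scaled to a fixed total, that can be compared between genes. Summed TPM of the non-clustered genes was 145 in replicate 1 and 159 in replicate 2 (152 ± 10.1, SD, n = 2), and that of the gamma genes was 119.9 and 124 (122 ± 3.09). The beta genes summed to 12.7 and 11.9 TPM (12.3 ± 0.608) and the alpha genes to 1.22 and 1.55 TPM (1.39 ± 0.233). The 4 sums kept this order in both libraries with no overlap. In these bulk samples, fewer cells of a type and less RNA per cell cannot be told apart.

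A gene was called detected at 1 TPM or more in both libraries, which held for 31 of 69 members, against 56.3% of all protein-coding genes. Detection split by subfamily, with 10 of 12 non-clustered, 20 of 21 gamma, 1 of 22 beta and 0 of 14 alpha genes. Median TPM was 3.47 over the non-clustered, 2.63 over the gamma, 0.42 over the beta and 0.04 over the alpha genes, beside 3.02 over all protein-coding genes. Pcdha1 and Pcdhb1 had 0 counts in both libraries, as did 21.7% of protein-coding genes. For Pcdhb1 a count of 0 allows up to 0.0428 TPM in replicate 1 and 0.0515 TPM in replicate 2. For Pcdha1, which shares exons with the other alpha genes, 3 counts were worth 0.0214 and 0.0257 TPM, but its deposited upper bounds were higher, at 0.0742 and 0.0768 TPM.

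Pcdh18, a delta2 protocadherin (ENSMUSG00000037892, chr3:49743296-49757325, minus strand, GRCm38), was the highest member. It stood at 103 TPM in replicate 1 and 113 TPM in replicate 2 (108 ± 7.15, n = 2), above 93.7% of protein-coding genes. Pcdh18 alone gave 70.9% of the non-clustered TPM and 37.5% of the TPM of all members. Among the other delta2 genes, Pcdh10 stood at 5.62 and 6.71 TPM, Pcdh17 at 3.99 and 4.41, Pcdh8 at 2.77 and 3.42, and Pcdh19 at 1.95 and 2.09. Pcdh8 encodes paraxial protocadherin, and Pcdh19 is the X-linked gene of a human epilepsy. Every delta2 gene was thus detected, and Pcdh18 was higher than the next of them in both libraries without overlap.

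Of the delta1 genes, which have a longer extracellular part and a binding motif for protein phosphatase 1, Pcdh9 led with 13.5 and 15.8 TPM (14.6 ± 1.62). Pcdh7 stood at 5.01 and 3.79 TPM, Pcdh1 at 3.65 and 3.26, and Pcdh11x at 1.38 and 2.06. All 4 were detected. Pcdh12, an endothelial protocadherin, stood at 3.16 and 3.79 TPM, and all 8 endothelial marker genes of a fixed list were detected, with a summed level of 197 TPM in replicate 1 and 180 in replicate 2; whether endothelium carries the Pcdh12 signal was not tested.

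The non-clustered genes below 1 TPM were Pcdh20, at 0.55 and 0.62 TPM, and Pcdh15, at 0.62 and 0.49 TPM. Pcdh15 encodes a part of the tip link of inner ear hair cells. Of 9 tip link partner genes, 3 were detected (Cib2, Myo7a and Ush1c) and the median was 0.155 TPM; Cdh23, the tip link cadherin that pairs with Pcdh15, stood at 0.12 and 0.52 TPM and was the 1 of 5 tested past the between-pool test described below (exact binomial test, log2 ratio 1.24, adjusted p = 0.0235), as were 3.09% of all genes tested. The Pcdh15 TPM lay below its own deposited credibility bounds in both libraries, which ran from 0.816 to 1.62 TPM in replicate 1 and from 0.800 to 1.62 TPM in replicate 2. Its level rested on 45 and 31 counts, and 59.9% and 74.7% of its TPM sat on a transcript annotated as a retained intron (ENSMUST00000148572). In the order of the 12 non-clustered levels, 6 of 11 neighbouring pairs did not overlap between libraries, among them Pcdh18 above Pcdh9, Pcdh9 above Pcdh10 and Pcdh10 above Pcdh7. Neighbours such as Pcdh7 and Pcdh17, or Pcdh12 and Pcdh1, overlapped and could not be ranked.

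**Figure D1:**
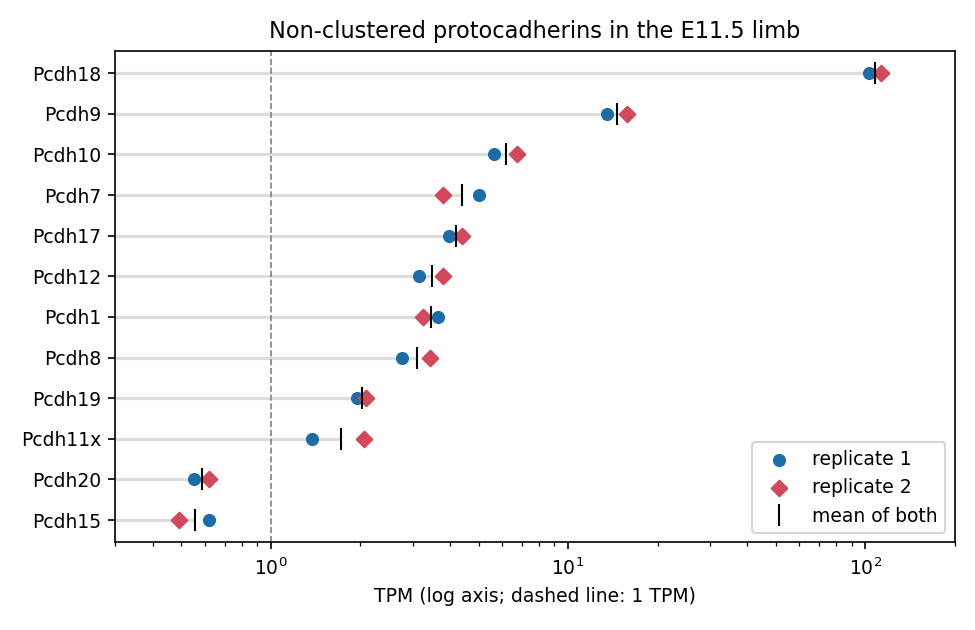
TPM of the 12 non-clustered protocadherins on a log axis, with circles for replicate 1, diamonds for replicate 2 and a bar at their mean. Pcdh18 lies near 108 TPM, well to the right of Pcdh9, and Pcdh20 and Pcdh15 lie left of the dashed line at 1 TPM.

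The clustered genes lie within chr18:36930184-37841873, with the alpha cluster first, then beta, then gamma. No alpha gene reached 1 TPM in either library. The highest was Pcdhac2, a C-type gene at the end of the cluster, at 0.65 and 0.80 TPM (0.725 ± 0.106), which gave 52.4% of the alpha TPM. The other 13 alpha genes ranged from 0 to 0.15 TPM in mean, and of the 13 neighbouring pairs in the alpha order only Pcdhac2 above Pcdha4 did not overlap. Of the 14 alpha genes, 6 were listed at 0 in at least 1 library, and their order below Pcdhac2 is not resolved here.

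Among beta genes only Pcdhb17 was detected in both libraries, at 1.49 and 1.64 TPM. Pcdhb22 (1.94 and 0.96 TPM), Pcdhb21 (1.73 and 0.81), Pcdhb7 (1.21 and 0.88) and Pcdhb20 (1.14 and 0.86) passed 1 TPM in replicate 1 alone, and Pcdhb8 (0.56 and 1.05) in replicate 2 alone. Levels thus lay around the threshold for these 5 genes. With TPM scaled over genes alone, without spike-ins, 25 clustered members were detected instead of 21. Of 21 neighbouring pairs in the beta order, 4 did not overlap. Along the cluster, level and position had a Spearman correlation of 0.44 in replicate 1 and 0.31 in replicate 2 over 22 genes of 1 pair of libraries, with the 11 later genes at a median of 0.44 TPM and the 11 earlier at 0.33 TPM.

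The gamma genes were all near or above 1 TPM, from Pcdhga1 at 1.23 and 1.08 TPM to Pcdhgc3 at 33.5 and 36.8 TPM. Pcdhgc5 was the single gamma gene not detected in both, at 0.95 and 1.57 TPM. The 12 A-type genes gave 26.7% of the gamma TPM, the 6 B-type genes 20.7% and the 3 C-type genes 52.6%. Pcdhgb8, annotated as a polymorphic pseudogene and so not a member, stood at 1.02 and 0.9 TPM and is outside these shares. Pcdhgc3 (35.1 ± 2.31 TPM) and Pcdhgc4 (29.0 and 26.7 TPM, 27.9 ± 1.63) stood above every A- or B-type gene without overlap. The rank of Pcdhgc4 and the C-type share rest on a transcript of mostly shared bases: without transcripts under 25% own bases Pcdhgc4 came to 5.64 TPM, below Pcdhgb6 and Pcdhgb7, and the C-type share to 42.1% (38.2% with a minimum of 50%). The next genes were Pcdhgb6 at 7.92 and 8.68 TPM, Pcdhgb7 at 6.62 and 7.86 TPM, and Pcdhga7 at 5.86 and 5.35 TPM. These first 5 ranks did not overlap with their neighbours, and in all 8 of 20 neighbouring pairs were apart. Along the 18 A- and B-type genes, level and position had a Spearman correlation of 0.39 and 0.34 in replicates 1 and 2.

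**Figure D2:**
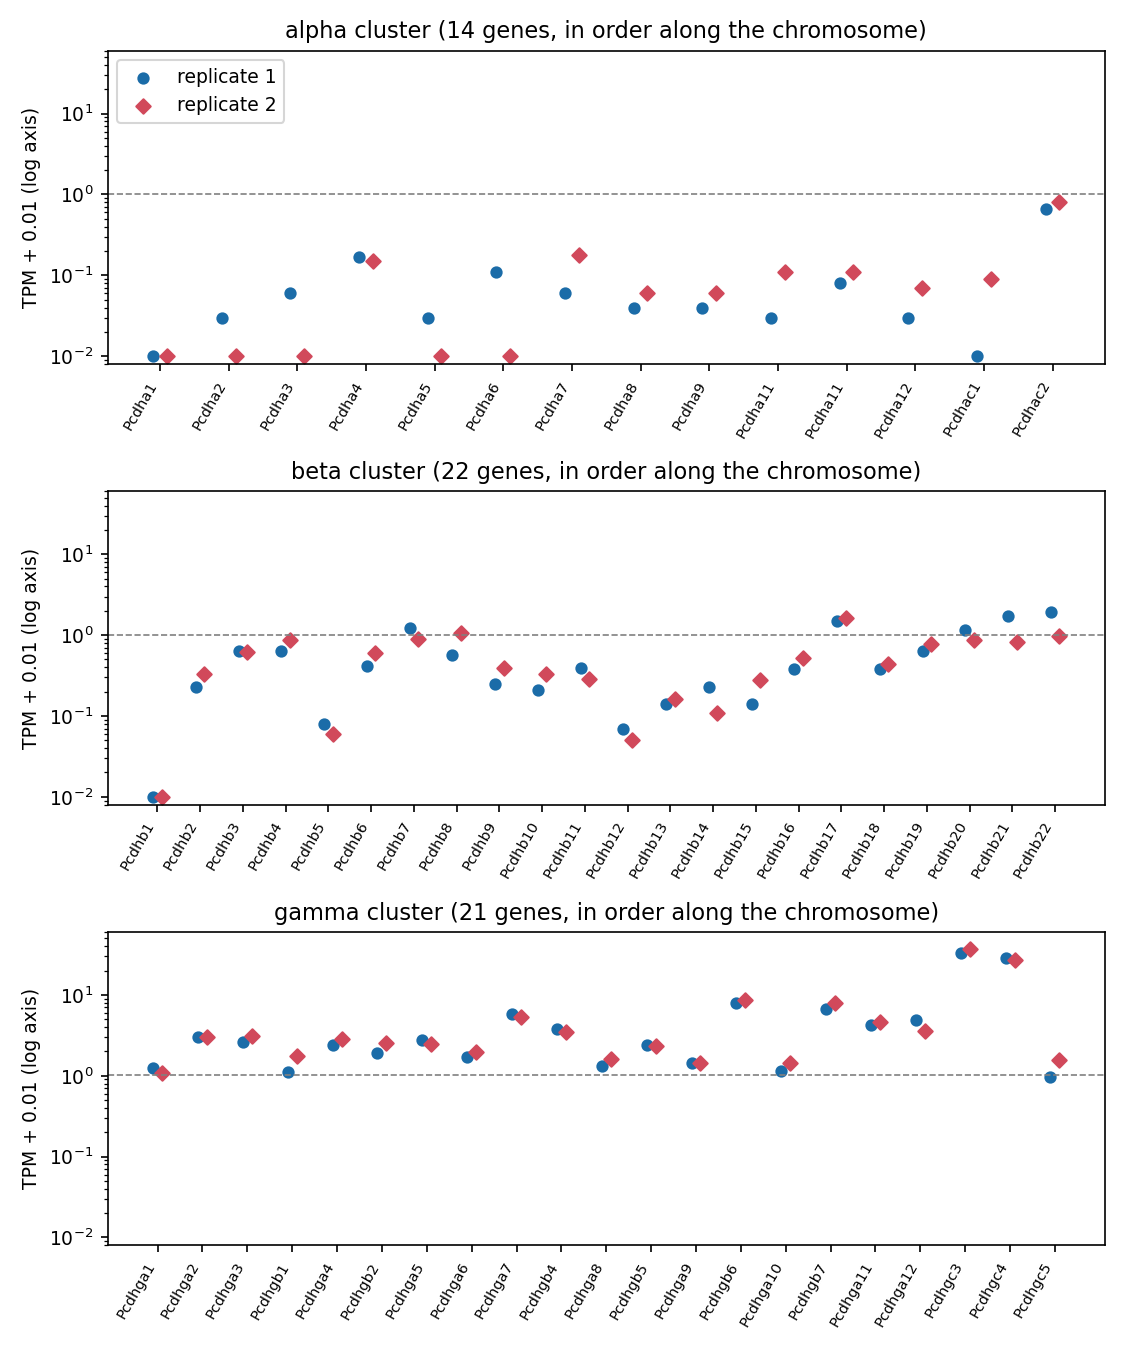
TPM plus 0.01 on a log axis for each clustered gene in chromosome order, with circles for replicate 1 and diamonds for replicate 2, and panels for the alpha, beta and gamma clusters. Alpha genes lie below the dashed line at 1 TPM, most beta genes lie below it, and the gamma genes lie above it, except Pcdhgc5 in replicate 1 at 0.95 TPM, with Pcdhgc3 and Pcdhgc4 highest; the 2 entries labelled Pcdha11 are separate gene IDs.

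The constant exons bear on how these levels were split between genes. All 14 alpha genes share exons of 59, 89 and 2712 nt, and all 21 gamma genes share exons of 59, 89 and 1971 nt (to within 3 bases at the last end), as annotated in GENCODE M21. A read from a constant exon can belong to any gene of its cluster, so the deposited counts there are estimates. Among genes with at least 20 counts, counts whole to within 0.005 in both libraries were found for 0 of 21 gamma and 0 of 3 alpha genes. They were found for 9 of 19 beta, 11 of 12 non-clustered and 10605 of 14325 protein-coding genes. Beta genes lack constant exons, so a count that is not whole need not come from a constant exon.

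For Pcdhgc4 the level rested mainly on shared sequence. The transcript ENSMUST00000195239 held 79.59% and 79.99% of its TPM (23.1 and 21.4 TPM), and only 153 of its 2272 bases were not covered by exons of another member. The full-length coding transcript of Pcdhgc4 (ENSMUST00000066140), with 2905 own bases, stood at 1.49 and 0.63 TPM. A retained-intron transcript (ENSMUST00000193222) stood at 4.43 and 4.72 TPM.

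Leaving out transcripts below a minimum share of own bases lowered Pcdhgc4 from 27.9 to 5.64 ± 0.403 TPM, most of it on the retained-intron transcript. Coding transcripts kept this way can still hold shared bases. The Pcdhgc4 value was the same with a minimum of 50% or 25%, both set after the values were seen. Other values depended on that minimum. With 50%, tried first, Pcdhgc3 came to 27.6 ± 5.78 TPM, the gamma sum to 89.9 ± 7.88 TPM and the gamma genes detected to 19, with Pcdhga4 at 0 and 0.58 TPM because its main coding transcript is 66.8% shared. With 25%, tried next because 50% kept only 9 of 24 alpha transcripts, Pcdhgc3 came to 35.1 ± 2.30 TPM, the gamma sum to 99.8 ± 4.31 TPM and the gamma genes detected to 20. Under both, Pcdhgc3 was above Pcdhgb6 and Pcdhgc4 was not.

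**Figure D3:**
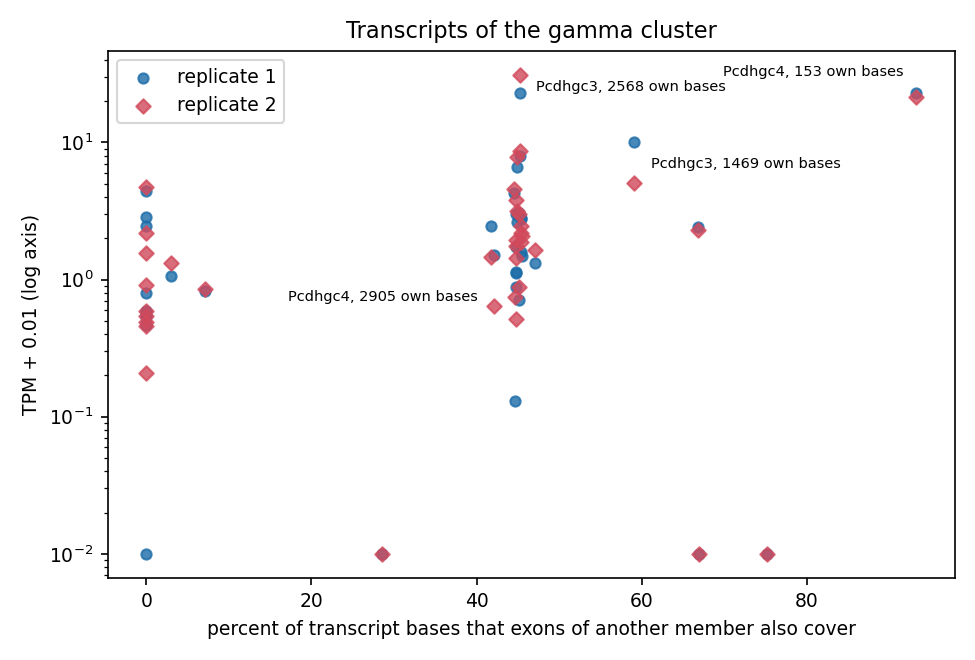
TPM plus 0.01 on a log axis for each annotated transcript of the gamma genes, against the percent of its bases that exons of another member also cover, with circles for replicate 1 and diamonds for replicate 2; points at the bottom are transcripts at 0. The Pcdhgc4 transcript with 153 own bases lies at the far right near 22.2 TPM, while the Pcdhgc4 transcript with 2905 own bases lies near 1.06 TPM.

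Transcript shares of other members ranged from stable to unresolved. Pcdh18 had 84.97% and 81.65% of its TPM on ENSMUST00000035931. Pcdh17 has a single transcript entry, so its share was fixed in advance. Pcdh9 had 66.7% and 66.2% on a transcript of 3014 nt (ENSMUST00000194056). In contrast, the coding transcript of Pcdhgc3 (ENSMUST00000076807) held 68.4% in replicate 1 and 84.7% in replicate 2, and a nonsense-mediated decay transcript (ENSMUST00000192103) stood at 10.0 and 5.08 TPM, a difference that was not tested. The leading form of Pcdh8 differed between pools, ENSMUST00000195355 with 59.5% in replicate 1 and ENSMUST00000039568 with 70.4% in replicate 2.

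Between the pools, member levels had a Pearson correlation of 0.99 and a Spearman correlation of 0.98 across 69 genes on the log2(TPM + 1) scale, which describes genes that share libraries and are not independent replicates. Within the beta genes Pearson's r was 0.86 and Spearman's rho 0.92. Within the alpha genes Pearson's r was 0.93 and Spearman's rho 0.43. On the log2(TPM + 0.1) scale, Pearson's r was 0.79 within the alpha and 0.91 within the beta genes. Each gene with at least 20 counts was compared between pools by an exact binomial test on counts scaled by TMM, with Benjamini-Hochberg adjustment over all 16787 genes tested. This test asks whether 2 libraries differ beyond counting error and compares no conditions. Of 55 members tested, 3 passed at an adjusted p of 0.05 and a 2-fold difference, against 3.09% of all genes tested and 2.42% of protein-coding genes tested.

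All 3 were clustered genes of low level, with 2 lower and 1 higher in replicate 2, where 1.6% of all genes tested were lower and 1.48% higher. Pcdhb21 had 225 counts in replicate 1 and 87.8 in replicate 2, a log2 ratio of -1.03 (exact binomial test, adjusted p = 6.68e-08). Pcdhb14 had 54 and 20.0 counts, a log2 ratio of -1.10 (exact binomial test, adjusted p = 0.0111). Pcdha7 had 7.5 and 20.6 counts, a log2 ratio of 1.64 (exact binomial test, adjusted p = 0.0183). The deposited bounds of Pcdha7 overlapped between the pools (0.0107 to 0.118 TPM and 0.0777 to 0.261 TPM), and 2860 of the 5337 bases of its transcript are shared with other alpha genes. Pcdhb22, of which a transcript with 20.2% and 27.5% of its TPM (ENSMUST00000192409) overlaps Pcdhb21 by 455 bases, had 166 and 75.2 counts, a log2 ratio of -0.83, which is below 2-fold (exact binomial test, adjusted p = 2.35e-04).

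Some members with many counts differed by less than 2-fold. Pcdh18 had 14232 and 13055 counts, a log2 ratio of 0.19 (exact binomial test, adjusted p = 1.14e-25), and Pcdhgc3 a log2 ratio of 0.24 (adjusted p = 7.50e-12 by the same exact test). Of the 4687 bases of the main Pcdhgc3 transcript, 2119 are also covered by exons of other members. The test does not cover the error of dividing shared reads between genes. In all, 40 of 55 members tested were higher in replicate 2, with a median log2 ratio of 0.21, against 47.1% of protein-coding genes tested and a median of -0.01. Among protein-coding genes over 4000 nt, 64.2% were higher in replicate 2 (median log2 ratio 0.06), and 60.6% of those at 1 to 10 TPM. Of members of that length, 28 of 36 were higher, with a median log2 ratio of 0.19. Among members of 4000 nt or less, 12 of 19 were higher, with a median of 0.28. These 19 were of any level, with a median of 0.805 TPM. Protein-coding genes of that length were taken at 1 to 10 TPM only, where 47.5% were higher, with a median log2 ratio of -0.02. At 1 to 10 TPM and any length, 21 of 32 members tested were higher, with a median log2 ratio of 0.14. Of protein-coding genes at that level, 51.1% were higher, with a median of 0.007. These length classes were set after the values were seen, and the part of length in the direction was not tested. With libraries scaled to spike-in totals, which shifted the median of all genes to -0.59, 7 of 55 members were higher in replicate 2. The median of members moved with it, to -0.38. A change of scale shifts every gene by nearly the same amount, so the gap between these medians was fixed in advance.

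**Figure D4:**
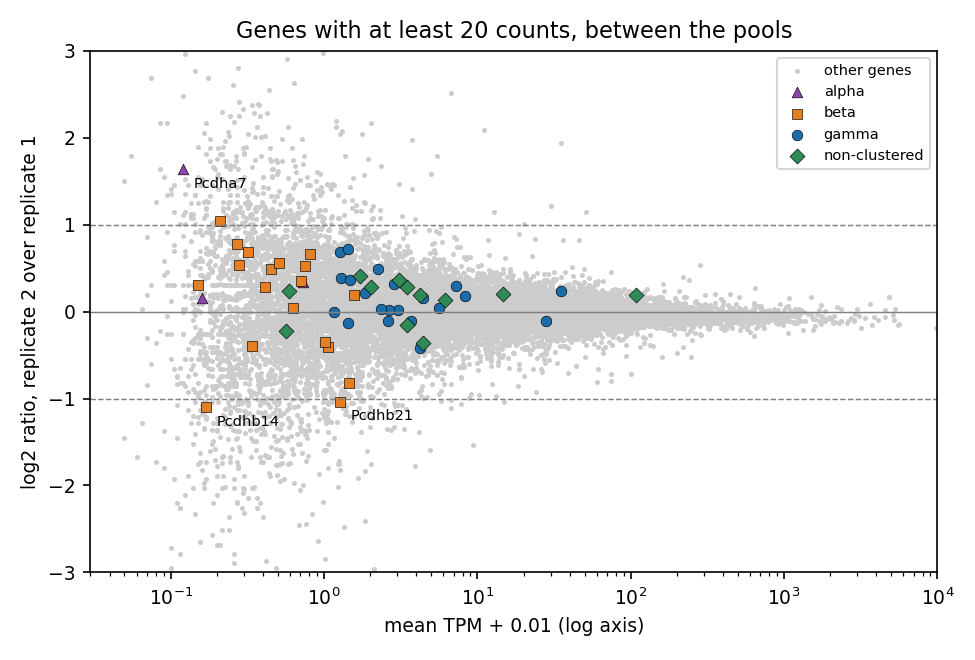
Log2 ratio of replicate 2 over replicate 1 against mean TPM plus 0.01 on a log axis for genes with at least 20 counts, with members coloured by subfamily, other genes in grey and dashed lines at 2-fold; 43 other genes lie outside the plotted range. The 3 named genes are the members past the test, and most members lie between the dashed lines and above 0.

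Genes beside and between the clustered genes were read from the same tables. Hars2 (34.1 and 37.0 TPM) and Zmat2 (37.4 and 35.4 TPM) lie before the alpha cluster, and Diaph1 (7.19 and 5.49 TPM) and Hdac3 (129.5 and 116 TPM) after the gamma cluster. Between beta and gamma genes, Taf7, a subunit of the general transcription factor TFIID, stood at 20.2 and 18.1 TPM, and Slc25a2, a mitochondrial carrier, at 0.31 and 0.34 TPM. The other 3 protein-coding entries within the clusters, Gm42416, Gm37013 and Gm37388, had 0 counts in both libraries. BC037039, which is antisense to exons of Pcdhgc3, stood at 6.01 and 6.05 TPM. Opposite exons of lower members lay Gm26672 (2.06 and 2.11 TPM; Pcdhga10, Pcdhga11, Pcdhga12 and Pcdhgb7), Gm37165 (0.49 and 1.2 TPM; Pcdhga7, Pcdhga8 and Pcdhgb4) and Gm10544 (0.98 and 1.17 TPM; Pcdha11). Gm37165 passed the between-pool test (exact binomial test, log2 ratio 1.29, adjusted p = 0.0065). These 4 entries were chosen after their values were seen, and as the strand setting is unknown, their reads and those of the members may not be separated.

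Genes that act with protocadherins were described by lists. All 23 regulators of the clusters were detected, with a median of 47.6 TPM. They include Ctcf (96.6 ± 2.47 TPM), which binds the variable exon promoters, the cohesin subunit Smc1a (106 ± 1.53 TPM) and the DNA methyltransferase Dnmt3a (126 ± 5.66 TPM). Of 15 intracellular partners 14 were detected, among them Ppp1ca (736 ± 61.9 TPM), a catalytic subunit of protein phosphatase 1, and Cyfip1 (86.0 ± 2.89 TPM), of the WAVE complex. All 7 genes of shedding and cleavage were detected, among them the sheddase Adam10 at 40.2 ± 1.82 TPM.

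Other cadherins gave 18 detected of 26 genes and a median of 3.26 TPM. Cdh11, a mesenchymal cadherin, was highest at 150.5 ± 0.714 TPM, followed by Cdh2 (N-cadherin) at 56.2 ± 7.03 TPM, so Pcdh18 at 108 TPM lay between them. Cdh7 and Cdh12, both below 1 TPM, were the 2 of 25 tested that passed the between-pool test, in opposite directions, where 3.09% of all genes tested passed.

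Since clustered protocadherins are best known in neurons, neuronal markers were read beside them. Of 10 neuron markers 8 were detected, with a median of 2.77 TPM and a summed level of 43.2 and 45.9 TPM. Isl1 was the highest of them, at 12.5 and 14.8 TPM, and the lowest had a mean of 0.06 TPM. Whether neurons alone carry this sum was not tested. Of 4 spinal cord progenitor markers 0 were detected, and Olig2 was at 0. Limb mesenchyme markers were all detected (8 of 8, median 51.9 TPM). The part of each cell type in the protocadherin levels was not tested.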

How the data were processed

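Total RNA was measured in 2 libraries, each from 10 ng of RNA longer than 200 nt. Per the file headers, the authors quantified transcriptome alignments on mm10 with annotation M4; for the aligner, its version and the strand setting: not given in the sources used here. The authors deposited expected counts (not normalised), TPM (scaled over all entries, spike-ins included), the percent of a gene's TPM on each transcript, and bounds of TPM, a signal-like value of unstated level. Counts on genes came to 40.6 M and 32.3 M. Members' counts were 0.0859% (95% Wilson interval 0.0850 to 0.0868) and 0.0961% (0.0951 to 0.0972) of them; intervals and floors of 3 counts cover counting error only. Spike-ins took 5.37% and 7.92% of counts and 11.8% and 17.2% of TPM. They were left out of tests with entries that name no gene.

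Symbols, types, exons and coordinates came from GENCODE M21 (GRCm38). Of gene IDs 42462 matched and 884 did not; 2 IDs carry the symbol Pcdha11. Expected counts were rounded for the exact binomial test, scaled with TMM (edgeR 4.0.16), with a prior count of 0.5 in log2 ratios. With 1 group there was no contrast for a quasi-likelihood test; DESeq2 1.42.0 gave only alternative size factors. On simulated counts of this comparison (16578 genes) the test recovered 96.9% of 4-fold and 98.0% of 8-fold changes. Those counts held counting error alone, with no variation between pools and no changes near 2-fold. They check the code and do not show how reliable the member calls are. Promoters matched for 9 of 10 members off chromosome 18. The members and lists were chosen with earlier results of these data known. All members could be named; of other lists, the 4 highest and those past the test, and genes in or beside the clusters.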

Additional observations from a re-analysis of the deposited data

How the results depend on the processing

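No paired analysis was possible because the labels give 1 group. Leaving out a library was not possible for the between-pool test, the order and the correlation. In either library alone 33 or 35 members, 23 or 25 clustered and 10 non-clustered members reached 1 TPM. At 2 TPM, 13 clustered members were detected instead of 21. Over genes alone, without spike-ins, summed TPM was 1.63 (alpha), 14.4 (beta), 143 (gamma) and 178 (non-clustered), and the non-clustered median 4.06. On that scale 35 members and 25 clustered members were detected, instead of 31 and 21. With posterior mean TPM the alpha sum was 1.675, the non-clustered median 3.68, and 2 alpha neighbours were apart instead of 1. The minimum share of own bases was set at 2 values, both chosen after seeing the data. With 50%, the alpha sum was 0.855 and the gamma sum 89.9 TPM; with 25%, the gamma sum was 99.8 TPM. The clustered median was 1.27 TPM with at least 20 counts and, chosen after seeing the data, 1.27 TPM without alpha genes. The correlation was 0.98 with a pseudocount of 0.1. Members past the between-pool test numbered 6 with no minimum count, 1 with a minimum of 100 counts (Pcdhb21) and 19 with no minimum log2 ratio. All genes past it numbered 75 with 100 counts, 4975 with no minimum log2 ratio and 1421 with spike-in totals, where 3 members passed again, with Pcdhb22 gained and Pcdha7 lost (adjusted p = 0.0753, against 0.0123 to 0.0265 under its other alternatives). Pcdhb21 and Pcdhb14 kept their direction and call under every alternative that tested them. Their log2 ratios changed only with the library scale, so the other alternatives could not alter direction. Pcdhb21 came nearest the 2-fold limit, at -1.02 with total gene counts. Alpha genes are limited both by counts, with 3 of 14 reaching 20, and by a median of 53.4% shared bases per transcript; these were not separated.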
